A study of Mus musculus with 6 samples.

Results

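The E2F transcription factors E2f1 to E2f8, together with Foxm1 and Mybl2, were examined in mouse primary renal tubular epithelial cells (TECs) in which Sox9 had been knocked down. The 10 genes were taken by name from a table of 30315 genes, and each had exactly 1 row. Of the 6 RNA-Seq libraries, 3 came from C57BL/6 TECs transfected with siSox9, a small interfering RNA (siRNA) against Sox9, and 3 from TECs transfected with the control siRNA siNC. Cells of both groups were transfected at about 50% confluence 12 h before hypoxia/reoxygenation (H/R), which was 6 h in glucose-free medium at 1% oxygen and then 18 h in complete medium under normal conditions, so no library came from uninjured cells. Whether the replicates were separate cultures or came from separate mice was not stated, the animals' age was not given, and the p-values therefore measure the spread between these libraries only.

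E2F factors bind DNA with a DP partner and set the timing of the genes needed for S phase. In the textbook scheme, E2f1, E2f2 and E2f3 activate transcription once cyclin-dependent kinases have released them from the retinoblastoma protein. E2f4 and E2f5 work mainly with the pocket proteins Rbl1 and Rbl2 to repress these genes in resting cells, E2f6 represses through Polycomb proteins, and the atypical members E2f7 and E2f8 bind without a DP partner and switch the same genes off again late in S phase. Mybl2, also called B-Myb, joins the MuvB complex in S phase, and Foxm1 follows on the same complex in G2 to drive mitotic genes. Adult tubule cells seldom divide, but re-enter the cell cycle during repair.

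Transcript levels are given as FPKM, reads scaled to exon length and to the reads of the library, as the authors deposited them. All 10 genes averaged over 1 FPKM across the libraries and entered the test. Differences were tested with limma on log2(FPKM + 1) over 12009 genes, with Benjamini-Hochberg adjustment over all of them and a threshold of 0.05. All limma fold changes are on this log2 scale, which understates the change of low genes. Read counts were recovered from the FPKM values with the exon lengths of GENCODE M21; the libraries held 23893197 to 25725743 reads, and each of the 10 genes came out as whole reads in every library. Sox9 itself had 8.93, 8.61 and 9.07 FPKM in siSox9 replicates 1, 2 and 3 and 25.7, 26.5 and 25.6 FPKM in siNC replicates 1, 2 and 3, which left 34.2% of the control level. The epithelial genes Krt8, Cdh1, Epcam and Pax8 had 2030 to 2190, 156 to 168, 123 to 141 and 13.9 to 15.9 FPKM, whereas the segment markers Slc34a1, Umod and Aqp2 had at most 0.00895, 0.0599 and 0.0296 FPKM, so no tubule segment could be named from them. Of the 16 tubule genes listed, 9 were tested and 2 passed, both as higher, as did 12.8% of all genes tested. These were Cdh16, from 100.9 ± 2.84 FPKM with siNC to 129.7 ± 0.424 FPKM with siSox9 (SD, n = 3 each; log2 fold change 0.36, adjusted p = 0.000307 from limma), and the injury marker Havcr1 (log2 fold change 0.18, adjusted p = 0.0366 from limma). The proximal tubule gene Lrp2 had 2.06 to 2.58 FPKM and did not pass. The part of these changes in the results below was not tested.

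Of the 10 factors, 5 fell with siSox9 and 0 rose. Foxm1, E2f8, E2f7, Mybl2 and E2f1 passed the threshold, and E2f2, E2f3, E2f4, E2f5 and E2f6 did not. Among all genes tested, 30.4% passed in either direction, 17.6% as lower and 12.8% as higher. At an unadjusted p under 0.05, limma gave 6 lower and 0 higher, the sixth being E2f5. In 6 of the 10 genes each siSox9 library lay below each siNC library, which was so for 26.1% of all genes tested, while in 0 of the 10 each lay above, as in 20.2% of all genes tested (46.3% in either direction). The median log2 fold change of the 10 was -0.23, against -0.01 over all genes tested. In RNA from whole cultures, fewer dividing cells and less of a transcript per cell cannot be told apart.

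**Figure D1:**
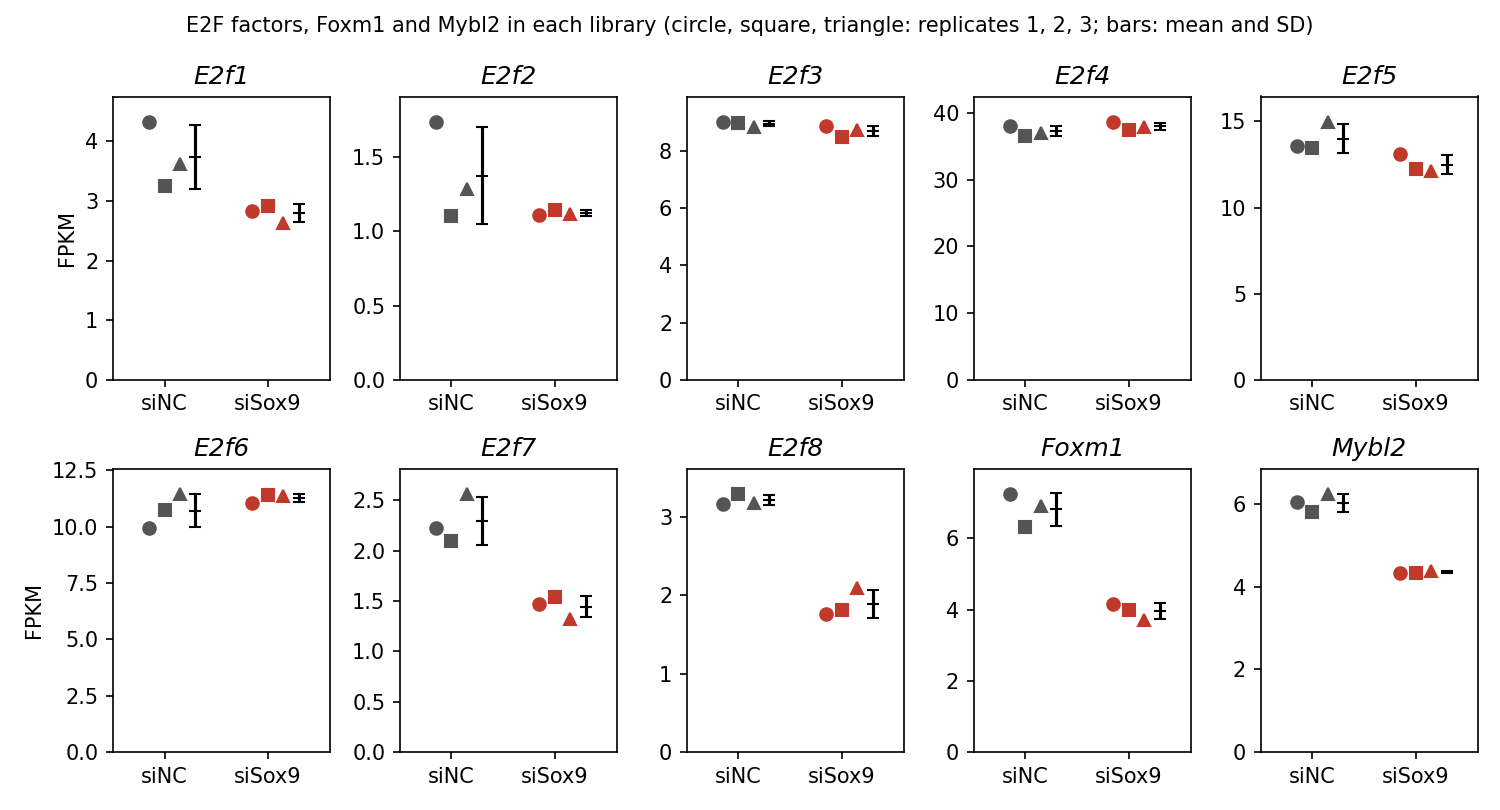
FPKM of each of the 10 genes (vertical axes, each starting at 0) in the 3 siNC and 3 siSox9 libraries, with bars for the mean and SD. Foxm1, Mybl2, E2f7, E2f8, E2f1 and E2f5 were lower in every siSox9 library than in any siNC library, while in E2f2, E2f3, E2f4 and E2f6 the groups overlapped.

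E2F family genes and their relatives are known to be under E2F control. The promoters of E2f7, E2f8 and Mybl2, which fell and held matches to the motifs below, are printed here. Not printed are E2f1, which fell without a match, and E2f2 and E2f3, which held matches but did not pass. Of the 10 genes, 7 had a promoter window of 250 bases before and 50 after a transcription start in the RefSeq table of GRCm38.p6; E2f4, E2f5 and Foxm1 had none. The motifs searched, on both strands, were the E2F form TTCCCGC, its relatives with other middle letters, which were TTCGCGC, then also TTGCCGC, and finally TTGGCGC, the E2F core GGCGGGA, which can overlap TTCCCGC on the other strand, and the cell cycle homology region (CHR) TTTGAA, the element that the MuvB complex binds in late cell cycle genes. Of all 32851 windows, 17.3% held at least 1 E2F form or the core and 17.9% held TTTGAA. The 250 bases before the start of E2f7, E2f8 and Mybl2 follow 5′ to 3′ on the strand of the gene, with matches in capitals. They lie at chr10:110745189-110745438 on the + strand, chr7:48881597-48881846 on the - strand and chr2:163054385-163054634 on the + strand.
E2f7: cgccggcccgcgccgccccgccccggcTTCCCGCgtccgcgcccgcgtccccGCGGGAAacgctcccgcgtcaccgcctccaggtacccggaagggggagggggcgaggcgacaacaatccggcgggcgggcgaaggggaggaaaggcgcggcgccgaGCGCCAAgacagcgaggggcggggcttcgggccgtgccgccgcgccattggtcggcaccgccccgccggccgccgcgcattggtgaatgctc
E2f8: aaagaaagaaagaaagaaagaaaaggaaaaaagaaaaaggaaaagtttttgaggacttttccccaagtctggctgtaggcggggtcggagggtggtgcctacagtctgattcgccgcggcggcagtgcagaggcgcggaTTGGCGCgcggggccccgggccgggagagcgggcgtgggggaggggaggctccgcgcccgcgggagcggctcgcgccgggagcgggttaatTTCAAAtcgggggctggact
Mybl2: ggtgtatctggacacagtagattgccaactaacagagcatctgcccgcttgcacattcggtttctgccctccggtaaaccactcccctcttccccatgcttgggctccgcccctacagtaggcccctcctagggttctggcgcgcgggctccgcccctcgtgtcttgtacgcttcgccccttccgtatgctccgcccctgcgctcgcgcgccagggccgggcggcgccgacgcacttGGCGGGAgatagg

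The E2f7 window held E2F forms beginning 223, 198 and 92 bases before the start, and no CHR. The E2f2 windows held an E2F form 40 bases after 1 start and a CHR 31 bases before the other. The E2f8 window held an E2F form 111 bases before the start and a CHR on the opposite strand 20 bases before it. In Mybl2 the E2F core began 13 bases before the start. The windows of E2f1 and E2f6 held none of these letters; the E2f1 window lies inside the longer GENCODE transcript of the gene. E2f3, which did not pass the threshold, held in 1 of its 2 windows an E2F form 11 bases before the start, with the core 12 and a CHR 23 bases before it and a further E2F form 18 bases after it. Its other window held the core 78 bases before and 18 bases after the start. Matches therefore occurred in genes that fell (E2f7, E2f8 and Mybl2) and in genes that did not pass (E2f2 and E2f3), and no binding was measured here.

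Foxm1 (ENSMUSG00000001517, chromosome 6 from 128362967 to 128376146, + strand), the forkhead factor that drives the G2 and mitotic genes, was the member with the largest fall. Its level was 4.16, 3.98 and 3.72 FPKM in siSox9 replicates 1, 2 and 3, from 616, 582 and 511 reads, and 7.24, 6.32 and 6.90 FPKM in siNC replicates 1, 2 and 3, from 1034, 878 and 987 reads. The highest siSox9 library lay below the lowest siNC library. The mean was 58.0% of that in siNC, or -0.66 as log2 fold change (standard error 0.06, 95% interval -0.79 to -0.52, adjusted p = 0.000364 from limma), which put Foxm1 at rank 124 from the lowest of the 12009 fold changes. Its exons share 144 bases with Tex52 and 97 bases with Gm44596 on the same strand, 2.5% and 1.69% of its exon length.

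Mybl2 (ENSMUSG00000017861, chromosome 2 from 163054687 to 163084688, + strand) joins MuvB in S phase. It had 4.34, 4.34 and 4.39 FPKM in siSox9 replicates 1, 2 and 3 and 6.04, 5.81 and 6.24 FPKM in siNC replicates 1, 2 and 3. Each siSox9 library was below each siNC library. The level with siSox9 was 72.2% of that with siNC and the log2 fold change -0.39 (standard error 0.04, 95% interval -0.48 to -0.30, adjusted p = 0.000582 from limma).

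The ratio of Foxm1 to Mybl2 within a library was lower with siSox9. With siNC it was 1.13 ± 0.0589 and with siSox9 0.908 ± 0.0571 (SD, n = 3 each), and the groups did not overlap. Which gene was the higher depends on the scaling to exon length. In recovered reads Foxm1 was above Mybl2 in each library, the closest being 511 against 486 reads in siSox9 replicate 3. Both factors were also set against Mki67, the proliferation marker, which itself fell (log2 fold change -0.78, adjusted p = 8.27e-05 from limma). Its mean with siSox9 was 55.0% of that with siNC, against 58.0% for Foxm1 and 72.2% for Mybl2. A higher ratio to Mki67 thus marks a smaller fall than that of Mki67, not a rise. The ratio of Foxm1 to Mki67 was 0.574 ± 0.0513 with siSox9 and 0.544 ± 0.0167 with siNC (SD, n = 3 each), with overlapping groups (exact two-sided permutation test, p = 0.4). The ratio of Mybl2 to Mki67 was 0.632 ± 0.0222 with siSox9 and 0.481 ± 0.0109 with siNC (SD, n = 3 each), and each siSox9 library was above each siNC library. For this ratio and for Foxm1 to Mybl2 the exact two-sided permutation test gave p = 0.1, the smallest that 3 libraries against 3 allow. These ratios were chosen after the levels had been seen.

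**Figure D2:**
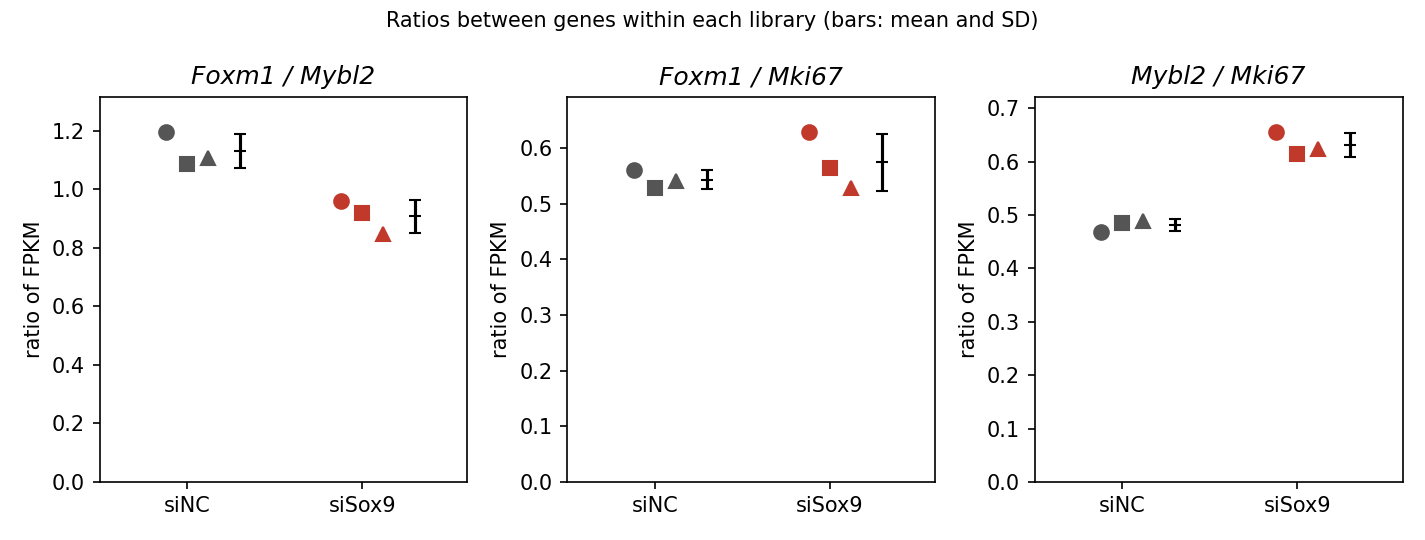
Ratios of FPKM within each library (vertical axes, no unit, starting at 0) for Foxm1 to Mybl2, Foxm1 to Mki67 and Mybl2 to Mki67 in the siNC and siSox9 groups, with bars for the mean and SD. The Foxm1 to Mki67 ratios of the groups overlapped, while Mybl2 to Mki67 ran from 0.614 to 0.657 with siSox9 and from 0.469 to 0.489 with siNC.

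Both atypical repressors fell. E2f8 (ENSMUSG00000046179, chromosome 7 from 48866429 to 48881596, - strand) had 1.76, 1.82 and 2.09 FPKM in siSox9 replicates 1, 2 and 3, from 247, 251 and 272 reads, and 3.17, 3.29 and 3.18 FPKM in siNC replicates 1, 2 and 3, from 428, 432 and 430 reads. The control libraries were nearly equal, and each siSox9 library was lower. The mean was 58.9% of that in siNC, or -0.54 as log2 fold change (standard error 0.06, 95% interval -0.68 to -0.41, adjusted p = 0.000799 from limma). The antisense gene Gm2788 overlaps 11.2% of the E2f8 exon length, and strand use in the counting was not stated, but its own level was at most 0.0372 FPKM.

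E2f7 (ENSMUSG00000020185, chromosome 10 from 110745439 to 110787384, + strand) had 1.47, 1.53 and 1.32 FPKM in siSox9 replicates 1, 2 and 3 and 2.22, 2.1 and 2.56 FPKM in siNC replicates 1, 2 and 3. The groups did not overlap. Its mean with siSox9 was 63.0% of that with siNC (log2 fold change -0.43, standard error 0.07, 95% interval -0.60 to -0.26, adjusted p = 0.00514 from limma). Because these genes are low, the pseudocount of 1 compresses their change most: with limma voom on the recovered reads the log2 fold changes were -0.66 for E2f7 and -0.77 for E2f8, next to -0.78 for Foxm1, -0.47 for Mybl2 and -0.41 for E2f1.

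**Figure D3:**
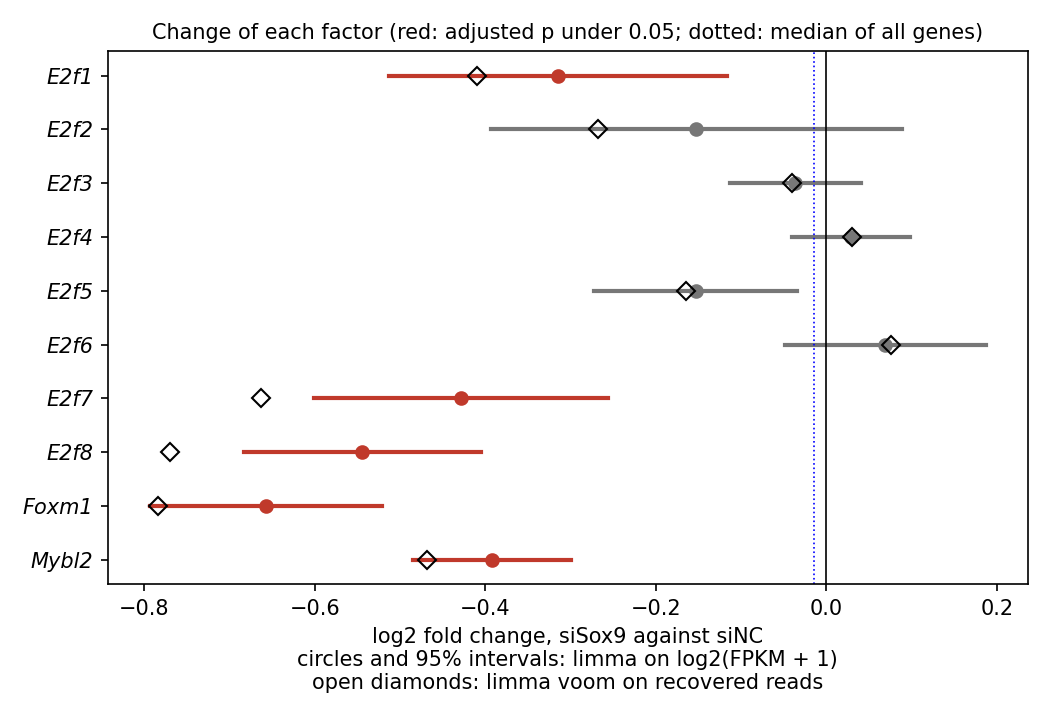
Log2 fold change of each gene, siSox9 against siNC (horizontal axis), from limma on log2(FPKM + 1) as circles with 95% intervals, and from limma voom on recovered reads as open diamonds. The red genes, E2f1, E2f7, E2f8, Foxm1 and Mybl2, passed the threshold, and the 2 scales differ most for the low genes E2f7 and E2f8.

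The activators E2f1, E2f2 and E2f3 did not share one pattern. E2f1 (ENSMUSG00000027490, chromosome 2 from 154559407 to 154569892, - strand) had 2.82, 2.92 and 2.63 FPKM in siSox9 replicates 1, 2 and 3, from 229, 234 and 198 reads, and 4.32, 3.26 and 3.62 FPKM in siNC replicates 1, 2 and 3, from 338, 248 and 284 reads. All siSox9 libraries were below all siNC libraries, with siNC replicate 1 the highest. The mean was 74.8% of that in siNC (log2 fold change -0.31, standard error 0.08, 95% interval -0.51 to -0.12, adjusted p = 0.0289 from limma). This call was the least stable of the 5: it held in 6 of 13 alternatives, with adjusted p from 0.00834 to 0.0956, and was lost when any siSox9 replicate or siNC replicate 3 was left out (log2 fold change -0.34 to -0.28, limma's adjusted p = 0.0704, 0.0599, 0.0853 and 0.0661 without siSox9 replicates 1, 2, 3 and siNC replicate 3).

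E2f2 (ENSMUSG00000018983, chromosome 4 from 136172394 to 136196057, + strand) was the lowest of the 10, with 1.11, 1.15 and 1.11 FPKM in siSox9 replicates 1, 2 and 3 and 1.73, 1.1 and 1.29 FPKM in siNC replicates 1, 2 and 3. The groups overlapped, and only siNC replicate 1, with 210 reads against 130 and 156 in the other controls, stood above the siSox9 libraries by more than counting error (exact Poisson 95% interval 1.51 to 1.98 FPKM, against upper bounds of 1.31 to 1.35 FPKM in the siSox9 libraries; these intervals cover counting error only). Its log2 fold change was -0.15 with a 95% interval from -0.39 to 0.09 (adjusted p = 0.301 from limma), and -0.05 without siNC replicate 1 (adjusted p = 0.702 from limma). That library was the highest control for 5 of the 10 factors and for 4872 of the 12009 genes tested.

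E2f3 (ENSMUSG00000016477, chromosome 13 from 29906575 to 29986063, - strand), the most abundant activator, had 8.86, 8.50 and 8.73 FPKM in siSox9 replicates 1, 2 and 3 and 9.0, 8.99 and 8.84 FPKM in siNC replicates 1, 2 and 3. The groups touched, and the log2 fold change was -0.04 with a 95% interval from -0.11 to 0.04 (adjusted p = 0.44 from limma). Each library held at least 1132 reads of E2f3. Whether E2f3 and E2f1 differed in their change was not tested. E2f3 has 2 promoter windows in the RefSeq table, and values per gene cannot separate isoforms.

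The pocket protein partner E2f4 (ENSMUSG00000014859, chromosome 8 from 105297663 to 105305370, + strand) was by far the most abundant of the 10. It had 38.6, 37.5 and 37.9 FPKM in siSox9 replicates 1, 2 and 3 and 38.1, 36.6 and 37.0 FPKM in siNC replicates 1, 2 and 3. The groups overlapped, and the log2 fold change was 0.03 with a 95% interval from -0.04 to 0.10 (adjusted p = 0.501 from limma).

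E2f5 (ENSMUSG00000027552, chromosome 3 from 14578641 to 14606309, + strand) lay at the threshold. It had 13.1, 12.2 and 12.1 FPKM in siSox9 replicates 1, 2 and 3 and 13.6, 13.5 and 14.9 FPKM in siNC replicates 1, 2 and 3. The groups did not overlap, but the gap between them was small, and the log2 fold change of -0.15 (95% interval -0.27 to -0.03) had an adjusted p = 0.0581 from limma. It passed in 1 of 14 alternatives, with a minimum of 5 FPKM (adjusted p = 0.0455 from limma), where fewer genes were tested; over the 14 alternatives its adjusted p ran from 0.0455 to 0.158. Its exons share 26 bases with 1810022K09Rik on the opposite strand, a gene of 21 to 24.9 FPKM.

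E2f6 (ENSMUSG00000057469, chromosome 12 from 16810963 to 16839742, + strand), the Polycomb-linked repressor, had 11.1, 11.4 and 11.4 FPKM in siSox9 replicates 1, 2 and 3 and 9.96, 10.8 and 11.4 FPKM in siNC replicates 1, 2 and 3. The groups overlapped, with a log2 fold change of 0.07 and a 95% interval from -0.05 to 0.19 (adjusted p = 0.338 from limma). The variance of the siNC reads of E2f6 was 7.23 times that of counting alone. High values were also seen in the siNC reads of E2f2 (9.16 times), E2f1 (6.01 times), E2f7 (5.55 times) and Foxm1 (4.46 times). For E2f5 with siNC the value was 2.16, and in the siSox9 libraries it was at most 2.19 for any of the 10 genes. Each value rests on 3 libraries and was not tested.

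By level, scaled to exon length, E2f4 (mean over the 6 libraries 37.6 FPKM) was followed by E2f5 (13.2), E2f6 (11.0), E2f3 (8.82), Foxm1 (5.39), Mybl2 (5.19), E2f1 (3.26), E2f8 (2.55), E2f7 (1.87) and E2f2 (1.25 FPKM). Down to Foxm1, the lowest library of each gene lay above the highest library of the next. Foxm1 and Mybl2 overlapped, each being the higher in 3 libraries: Foxm1 in the siNC libraries and Mybl2 in the siSox9 libraries. In recovered reads, not scaled to exon length, Foxm1 was the higher in each library. E2f8 exceeded E2f7 and E2f7 exceeded E2f2 in all 6 libraries, but their ranges overlapped. The factors that fell were thus those at 1.87 to 5.39 FPKM, and E2f2 below them and the 4 genes at 8.82 FPKM and above did not pass.

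Within the E2F family the makeup of the summed FPKM differed between the groups. E2f7 and E2f8 made up 4.29% ± 0.165 of the E2F total with siSox9 and 6.75% ± 0.178 with siNC (SD, n = 3 each). E2f4, E2f5 and E2f6 together made up 79.5% ± 0.166 with siSox9 and 76.0% ± 0.796 with siNC, and the activators 16.2% ± 0.0825 and 17.2% ± 0.961 (SD, n = 3 each). The groups did not overlap in any of these shares, as was so for 46.3% of single genes tested. The E2F total itself was 77.7 ± 0.95 FPKM with siSox9 and 81.5 ± 1.75 FPKM with siNC (SD, n = 3 each). The larger share of E2f4, E2f5 and E2f6 is therefore not a rise in their levels. E2f4 and E2f6 did not pass, and E2f5 was lower in every siSox9 library than in any siNC library. The level of E2f1 was 7.34% ± 0.426 of that of E2f4 with siSox9 and 10% ± 1.23 with siNC (SD, n = 3 each).

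Of 12 partners listed, which were the DP proteins, the pocket proteins, MuvB subunits and the other Myb genes, 11 were tested, 3 fell and 0 rose; at an unadjusted p under 0.05 limma gave 4 lower and 0 higher, and with limma voom 0 rose. Their median log2 fold change was -0.11. Among all genes tested 17.6% fell and 12.8% rose, and with TPM 1 partner fell. Rbl1, the pocket protein p107, was lower by most, with 4.07 ± 0.271 FPKM with siSox9 against 5.68 ± 0.226 FPKM in the controls (SD, n = 3 each; log2 fold change -0.40, adjusted p = 0.00182 from limma). Rb1, the retinoblastoma protein, fell by 0.21 on the log2 scale (adjusted p = 0.0129 from limma). Tfdp1, a main DP partner, fell by 0.15 on that scale (adjusted p = 0.0117 from limma). The MuvB subunits Lin9, Lin37, Lin52, Lin54 and Rbbp4 did not pass, and Myb was below the minimum.

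Of the 12 genes of the Polycomb complex around E2f6, all tested, 4 fell and 1 rose, with a median of -0.12, against 17.6% lower and 12.8% higher among all genes tested. With TPM, 2 of them fell. L3mbtl2 and Max fell by 0.24 each on the log2 scale (adjusted p = 0.0191 and 0.00257 from limma), and Yaf2 rose by 0.25 (adjusted p = 0.00377 from limma).

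Among 17 regulators of G1, 8 fell and 3 rose, with a median of -0.19, against 17.6% lower and 12.8% higher among all genes tested. Ccne1, the cyclin that activates Cdk2 at the G1/S boundary, fell from 9.21 ± 1.40 FPKM with siNC to 5.52 ± 0.148 FPKM with siSox9 (SD, n = 3 each; log2 fold change -0.64, adjusted p = 0.00302 from limma). The Cdk4 and Cdk6 inhibitor Cdkn2c fell by 0.50 (adjusted p = 0.00138 from limma). Cdkn2b, an inhibitor of the same kinases, rose from 40.3 ± 0.412 FPKM with siNC to 51.9 ± 2.90 FPKM with siSox9 (SD, n = 3 each). Its log2 fold change was 0.36 (adjusted p = 0.00127 from limma), and their relatives Cdkn2a and Cdkn2d did not pass. The Cdk inhibitors of the Cip/Kip family did not move together. Cdkn1b, the inhibitor p27, fell from 9.51 ± 0.542 FPKM with siNC to 6.68 ± 0.238 FPKM with siSox9 (SD, n = 3 each; log2 fold change -0.45, adjusted p = 0.000748 from limma). Cdkn1a, the Cdk inhibitor p21, rose from 229.6 ± 2.68 FPKM with siNC to 294.5 ± 2.67 FPKM with siSox9 (SD, n = 3 each; log2 fold change 0.36, adjusted p = 0.000192 from limma), and Cdkn1c, the inhibitor p57, rose from 3.20 ± 0.173 to 6.22 ± 0.488 FPKM (SD, n = 3 each; log2 fold change 0.78, adjusted p = 0.000234 from limma).

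The genes that E2F factors are known to switch on for S phase fell in most cases. Of 40 such genes, 39 were tested, 32 fell and 0 rose, with a median log2 fold change of -0.34; at an unadjusted p under 0.05 limma gave 34 lower and 0 higher, and limma voom called 0 as higher. Among all genes tested, 17.6% fell and 12.8% rose. The ribonucleotide reductase subunits Rrm2 and Rrm1 fell by most. Rrm2 went from 49.5 ± 1.91 FPKM with siNC down to 22.7 ± 1.54 FPKM with siSox9 (SD, n = 3 each; log2 fold change -1.09, adjusted p = 6.03e-05 from limma). Rrm1 fell by 0.82 on the log2 scale (adjusted p = 9.9e-05 from limma).

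The G2 and mitotic genes that Foxm1, Mybl2 and MuvB are known to drive also fell. Of 40 such genes, all tested, 39 fell and 0 rose, with a median of -0.62; at an unadjusted p under 0.05 limma also gave 39 lower and 0 higher, and limma voom called 0 as higher. Cdc20, the activator of the anaphase-promoting complex, fell from 19.6 ± 1.44 FPKM with siNC to 10.4 ± 0.351 FPKM with siSox9 (SD, n = 3 each; log2 fold change -0.86, adjusted p = 0.000108 from limma), and the kinase Plk1 fell by 0.82 (adjusted p = 0.000209 from limma). Gtse1 was the gene that did not pass, with a log2 fold change of 0.03. Its values did not come out as whole reads, which was also so for some genes of the list that fell. Of all genes tested, 17.6% passed as lower and 12.8% as higher. Whether the lists differed from each other or from other genes was not tested.

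**Figure D4:**
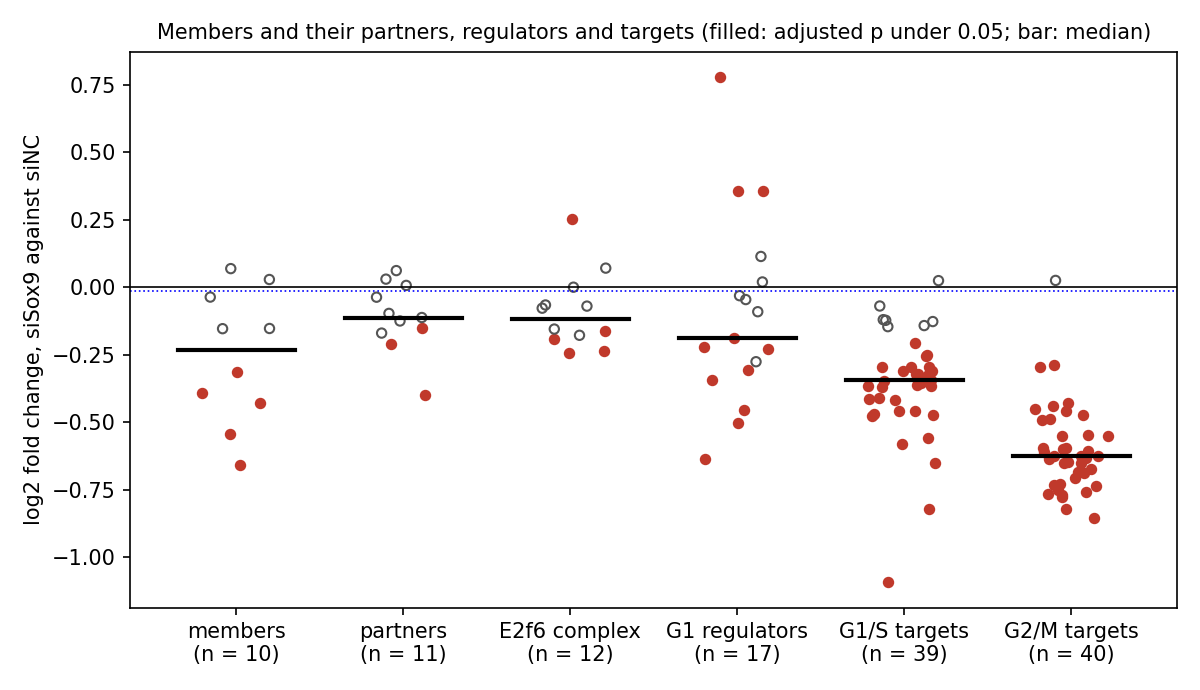
Log2 fold change of each tested gene, siSox9 against siNC (vertical axis), for the 10 factors, 11 partners, 12 genes of the E2f6 complex, 17 G1 regulators, 39 G1/S targets and 40 G2/M targets (filled red: adjusted p under 0.05 from limma; horizontal bars: medians; dotted line: median of all genes tested). The medians run from -0.11 for the partners to -0.62 for the G2/M targets.

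Over the 6 libraries, the genes with the profile most like that of Foxm1 on the log2(FPKM + 1) scale were Wrb, Fbxw5 and Gdf11 (Pearson's r of 0.9996, 0.999 and 0.9987), and those most like Mybl2 were Dlgap5, Stk39 and Htr1d (0.9988, 0.9987 and 0.9986). E2f8 was most like Mad2l1, Dlst and Nudcd2 (0.9992, 0.9983 and 0.998), and E2f7 most like Ralgapb, Ctdspl2 and Sgms1 (0.9999, 0.9974 and 0.9973). E2f1 was most like Syne4, Ocln and Epb41 (0.9943, 0.9939 and 0.9915). Of these 15 genes, Dlgap5 was on a list used here. The points are 2 groups of 3 libraries, so any gene with a clear difference between the groups correlates highly. Among the factors themselves, r was 0.985 for Foxm1 with Mybl2 and 0.973 for E2f8 with Mybl2, against -0.447 for Foxm1 with E2f4.

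Summed levels of the marker lists of macrophages, fibroblasts and endothelium did not overlap between the groups, as was so for 46.3% of single genes tested. The macrophage sum was higher with siSox9, and the fibroblast and endothelial sums were lower. The tubule list summed to 3842 to 4006 FPKM with siSox9 and 3669 to 3878 FPKM with siNC, which overlapped. The macrophage list summed to 103.7 to 114.0 FPKM with siSox9 and 92.6 to 99.1 FPKM with siNC, mostly Lyz2 (68.0 to 87.8 FPKM over all libraries). Of its 4 tested genes, 1 rose, which was Lyz2, and 0 fell, against 12.8% higher and 17.6% lower among all genes tested. Means with siSox9 were 116% of those in siNC for Lyz2 and 110%, 108% and 110% for Adgre1, Cd68 and Itgam. Ptprc and Csf1r went the other way, at 90.2% and 97.1%. The fibroblast list summed to 6.45 to 7.95 and 7.99 to 9.09 FPKM, and the endothelial list to 2.91 to 3.10 and 3.22 to 4.12 FPKM, with siSox9 and siNC in that order. The fibroblast sum was mostly Col1a1 (4.99 to 7.09 FPKM over all libraries), whose own groups overlapped. Col1a1 and Cdh5, the gene of each list that was tested, did not pass (adjusted p = 0.118 and 0.449 from limma), and the endothelial genes Kdr and Tek had means of 122% and 138% of those in siNC. Podxl, a gene of podocytes that other cells also express, fell from 11.6 ± 0.159 FPKM with siNC to 7.48 ± 0.346 FPKM with siSox9 (SD, n = 3 each; log2 fold change -0.57, adjusted p = 0.000158 from limma). The part of these cells in the results above was not tested.

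**Figure D5:**
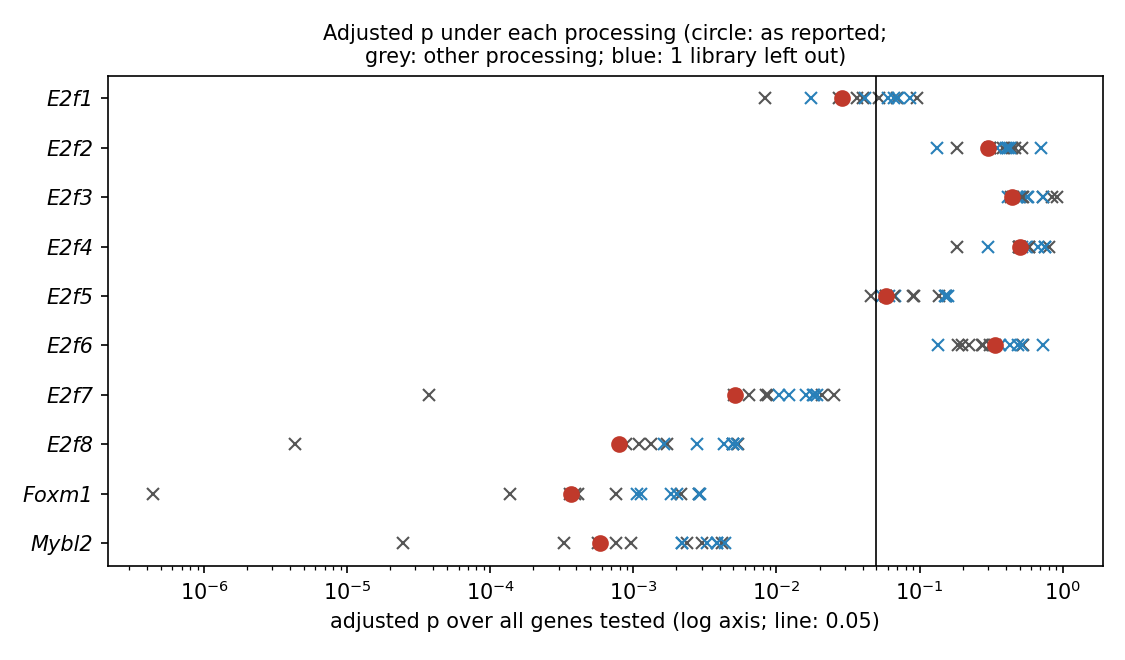
Adjusted p of each gene over all genes tested (horizontal log axis, with a line at 0.05) as reported (circles), under other processing (grey crosses) and with 1 library left out (blue crosses). Foxm1, Mybl2, E2f7 and E2f8 stayed under 0.05 throughout, E2f1 and E2f5 lay on both sides of the line, and E2f2, E2f3, E2f4 and E2f6 stayed above it.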

How the data were processed

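RNA-Seq libraries were sequenced on an Illumina NovaSeq instrument. The values deposited by the authors are FPKM of each gene, 1 column for each of the 6 libraries, with no other per-sample column. Columns headed siNC were the controls; those headed si3, the remaining siRNA, were taken as siSox9 by elimination and by their replicate numbers, since the heading does not name Sox9. The submitters' processing notes name Bowtie2 2.2.3, HISAT2 2.1.0, TopHat2 and the build mm9, without roles; counter, annotation and strand setting were not given in the sources used here. Coordinates here are GRCm38, because 93.3% of the 30246 genes shared with GENCODE M21 have the same listed position in that annotation, all 10 factors included.

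Reads were recovered as FPKM times exon length over the value of 1 read; 93.3% of values were whole within 0.02 reads. Mean chi-square between libraries of a group was 1.89 to 6.87, where sampling noise gives about 1, so none was a copy. At 3 reads on 1 kb of exons, the floor was 0.117 to 0.126 FPKM. Genes averaging 1 FPKM or more were fitted on log2(FPKM + 1) in R 4.3.3 using limma 3.58.1, with a mean-variance trend in eBayes. The fit was tested on simulated data and run without a replicate block. The paper names an unpaired test for its comparisons of 2 groups in general, and does not state whether these libraries were paired. The rest used Python 3.11.15 (scipy 1.17.1, numpy 2.4.6, matplotlib 3.10.9, pandas 2.3.3). Named genes were the 10 factors, Sox9, from each list up to 2 rises and 2 falls past the threshold whose groups did not overlap, and the 3 genes most correlated with each factor. Tfdp1, Cdkn1b, Cdkn2b, Mki67, Gtse1, the marker genes and those not passing were named after their values had been seen. The factors, lists and motifs were chosen with earlier results of these data known. Alternatives were limma voom on recovered reads, each library left out, the replicate number as a block, scaling by quantiles, by medians or to TPM, a pseudocount of 0.1, and a filter at 5 FPKM or none. The summed level of 1 further marker list is not reported here.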

Additional observations from a re-analysis of the deposited data

How the results depend on the processing

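Under all 14 alternatives, or the 13 in which E2f7 and E2f8 were tested, Foxm1, Mybl2, E2f7 and E2f8 stayed lower and past the threshold, and no factor changed direction. E2f1 lost the threshold with no filter (adjusted p = 0.0956 from limma), with TPM (0.0694), with quantile-normalized values (0.0522) and without some libraries, as given above. A minimum of 5 FPKM left 7495 genes in the test and removed E2f1, E2f2, E2f7 and E2f8, so that 3 factors passed as lower. Of the genes left, 5 G1 regulators, 17 G1/S targets and 22 G2/M targets were lower, as were 1376 of the 7495. These counts cannot be set against those reported, since the lists also lost genes to the filter. With TPM, 1332 genes were lower, with 1 partner and 2 genes of the E2f6 complex among them; the cause was not tested. With limma voom on recovered reads, 1 G1 regulator was higher, since Cdkn1a and Cdkn2b did not give whole reads and were not tested. Leaving out 1 library, 2424 to 3654 genes passed, 1480 to 2089 of them lower and 944 to 1565 higher, with 4 to 5 factors lower. Median-centred values gave 1959 higher and 1765 lower genes and quantile-normalized values 1812 and 1797, against 1532 and 2118 as reported. The median fold change of all genes stayed between -0.02 and 0.01 on the log2 scale. With the replicate block, 3262 genes passed, and the same 5 factors fell, E2f1 with an adjusted p = 0.0403 from limma. Same-numbered libraries did not deviate together (correlations of 0.0649, -0.0504 and 0.00784), and 2 of 6 libraries correlated best with their own number. The E2f2 interval of -0.39 to 0.09 leaves a fall as large as that of E2f1 undetected. Its siNC libraries held 130 to 210 reads, with a variance 9.16 times that of counting alone.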
